A study of Mus musculus with 4 samples.

Results

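Dlk1, Sox9, Gata2, Gata3, Nr2f2, Hes1, Zfp521, Twist1 and Foxo1 are 9 mouse genes whose products are known as marks of preadipocytes or as brakes on fat cell formation. They were taken by name, together with every probe set that the platform annotation ties to them alone. This gave 22 of the 45101 probe sets and 9 of the 18194 named genes. Of the 9 genes 8, with 18 probe sets, passed the filter on low signal, which keeps a gene when its mean log2 signal over the 4 arrays is no lower than the median probe set (50.9 as a signal). Gata3 did not pass, so its values are given but its differences are not read.

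The 4 arrays hold RNA from 3T3-L1 cells, a clonal preadipocyte line derived from mouse embryo fibroblasts, each collected 24 h after adipogenic induction with insulin, dexamethasone and isobutylmethylxanthine in medium with 25 mM glucose and 10% serum. Of these cultures 3 had received an siRNA 24 h before induction: against aof2 (Kdm1a, the histone demethylase LSD1), against rfk (riboflavin kinase), or the control siGL3, which is directed at a luciferase. The other culture received tranylcypromine, a drug that blocks monoamine oxidases and also LSD1, in the induction medium. The labels name no siRNA for it and its dose is not stated there, so transfection and drug cannot be told apart in that comparison. The cells carry no other stated modification, and there is 1 array per group. The title of the control array ends in a 2 whose meaning is not stated.

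The conditions cannot be tested against each other with single arrays, and each value below is a single measurement with no error between cultures. The values are MAS5 signals, a linear brightness per probe set, and differences are on the log2 scale, where 1 is a 2-fold difference. The pooled SD between probe sets of the same gene, over 5228 genes with several, was 0.30 for aof2 siRNA, 0.29 for rfk siRNA and 0.36 for tranylcypromine, and it serves as the yardstick of measurement scatter. Kdm1a stood at 19.5% of control with aof2 siRNA and Rfk at 27.02% with rfk siRNA, so both arrays matched their labels. The 18 hybridization control probe sets of the treated arrays differed from those of the control array by -0.26 to 0.21. Of 7 fibroblast and preadipocyte markers on the array, Dlk1 among them, all 7 passed the filter. Their summed signals were 77759, 76400 and 76460 in the aof2 siRNA, rfk siRNA and tranylcypromine arrays and 71375 in the control array. The brightest was Vim, with a mean signal of 29912, so the sum mostly follows a few bright genes. By gene 4, 4 and 5 of the 7 were above control, against 49.3%, 48.5% and 48.0% of all genes that passed the filter. Below control were 3, 3 and 2, with Col1a1 lowest at -0.55, -1.01 and -0.98. Among 5 adipocyte markers Adipoq, Cidec and Lep lay below the filter in signal, and the sum was 1407, 872 and 1163 in the treated arrays and 2590 in the control array, most of it Fabp4. Fewer cells of a type and less RNA per cell cannot be told apart in such bulk samples.

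As background, preadipocytes must shut off a set of inhibitors before the adipogenic receptor PPAR gamma and the C/EBP factors can drive lipid storage. DLK1, also called Pref-1, is a transmembrane protein with epidermal growth factor-like repeats, and its shed outer part keeps preadipocytes undifferentiated, in part by maintaining SOX9. SOX9 is known to restrain Cebpb and Cebpd, while GATA2, GATA3, NR2F2 and FOXO1 are known to act against Pparg or its product. HES1 is the repressor that Notch signalling switches on, ZFP521 binds and inhibits the factor EBF1, and TWIST1 is a basic helix-loop-helix factor of mesenchymal cells.

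Promoter sequence is shown for Dlk1 and Twist1, for which the control array lay at one end of the 4 on every probe set that passed the filter, and for Gata2, whose probe sets disagreed. The windows come from a table of RefSeq promoters on GRCm38.p6 in which 6 of the 9 genes were matched, and those printed lie on the plus strand. Promoters of Sox9, Hes1 and Zfp521 were not analysed here. The Dlk1 stretch, at chr12:109452736-109452762, covers bases 87 to 61 before an annotated start at 109452823. It lies inside the gene, after its earliest annotated start, and the capitals mark the forkhead motif GTAAACA read on the opposite strand:
Dlk1: TGTTTACcagtggtctcctgTGTTTAC
Gata2 has 2 annotated starts, and the windows hold the 250 bases before each, at chr6:88193641-88193890 and chr6:88198414-88198663. The second window lies within the gene. Twist1 is shown in the same way at chr12:33957421-33957670. Capitals mark CCAAT on either strand:
Gata2 upstream start: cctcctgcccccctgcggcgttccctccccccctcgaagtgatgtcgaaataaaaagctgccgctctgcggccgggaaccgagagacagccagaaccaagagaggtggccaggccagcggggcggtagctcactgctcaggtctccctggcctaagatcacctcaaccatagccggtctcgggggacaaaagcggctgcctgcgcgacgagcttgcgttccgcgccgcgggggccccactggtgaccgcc
Gata2 downstream start: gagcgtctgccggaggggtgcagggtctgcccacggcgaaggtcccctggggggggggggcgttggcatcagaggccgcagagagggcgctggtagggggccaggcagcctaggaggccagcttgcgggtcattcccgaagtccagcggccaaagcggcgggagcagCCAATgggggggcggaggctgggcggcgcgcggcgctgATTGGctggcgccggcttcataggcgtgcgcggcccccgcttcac
Twist1: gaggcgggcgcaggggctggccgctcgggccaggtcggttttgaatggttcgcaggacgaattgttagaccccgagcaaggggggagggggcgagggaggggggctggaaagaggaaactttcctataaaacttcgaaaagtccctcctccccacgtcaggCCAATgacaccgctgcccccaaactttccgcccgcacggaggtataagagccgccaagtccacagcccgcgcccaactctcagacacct

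The forkhead motif, which FOXO1 and related factors can bind, matched 2 times in the Dlk1 window of 250 bases and in 1 of the 7 windows of these genes. Of 32851 windows of the same length before RefSeq starts, 3.17% held it on either strand. CCAAT matched in 4 of the 7 windows, among them 2 times before the downstream start of Gata2, 1 time in Twist1 and at no place before the upstream start of Gata2, against 33.8% of all windows. The letters AGATAA, which fit GATA2 and its relatives, matched in 0 of the 7 windows, and so did AGGTCA, a single site of nuclear receptors such as NR2F2, against 9.99% and 14.02% of all windows. CANNTG, the E-box of helix-loop-helix factors such as TWIST1, matched in 2 of the 7 (66.2% of all), CACNAG, the N-box of HES1, in 2 (36.7%), and ACAANG, a SOX motif, in 1 (36.3%). The E-box can overlap the CCAAT and N-box letters. A match describes the letters and does not show binding.

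In the aof2 siRNA array Hes1 was lower and Zfp521 higher than in the control array by more than 1.5-fold. The other regulators that passed the filter lay within 1.5-fold on their brightest probe sets, on which the counts below rest. Dimmer probe sets that passed the filter lay beyond 1.5-fold for Dlk1 (1.16) and Gata2 (-0.71). Of the 8 genes 0 were at least 2-fold higher and 0 at least 2-fold lower, against 1.61% higher and 0.538% lower among the 10788 genes that passed the filter. At 1.5-fold 1 of 8 was higher and 1 of 8 lower, against 6.26% and 2.88% of all genes. Among the 6873 bright genes, those with a mean signal of at least 414, to which 6 of the 8 belong (all but Hes1 and Gata2), the shares were 2.98% and 1.22%. The background split depends on scaling: 174 genes were 2-fold higher and 58 lower as deposited, and 134 and 77 with the arrays centred on their medians, while at 1.5-fold it was 675 and 311, and 521 and 447 when centred. The median over the 8 genes was 0.14, beside -0.004 over all genes. Of the 8, 5 were above control and 3 below, against 49.3% of all genes above. The median size of their differences, without sign, was 0.43, beside 0.18 over all genes. The regulators thus lay both above and below control on this array.

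In the rfk siRNA array Sox9 was the regulator furthest above control on the brightest probe sets, with Zfp521 just inside the 1.5-fold limit. Of the 8 genes 6 were above control, against 48.5% of all genes. A dimmer Dlk1 probe set that passed the filter stood at 0.74, beyond 1.5-fold. With the mean of all probe sets 4 of the 8 were above control and their median was 0.06. At 2-fold 0 of the 8 were higher and 0 lower, against 0.927% and 0.806% of all genes. At 1.5-fold 1 was higher and 0 lower, against 3.92% and 3.8% of all genes and 1.64% and 1.54% of bright genes. The median over the 8 was 0.27, beside -0.009 over all genes, and the median size was 0.27 beside 0.16.

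In the tranylcypromine array 4 of the regulators that passed the filter were above control, by up to 0.18 (Dlk1), and 4 below, down to -0.56 (Twist1), against 48.0% of all genes above. With centred arrays 3 were above and 5 below. Of the 8 genes 0 passed 2-fold in either direction, against 2.23% higher and 0.945% lower among all genes, and 0 passed 1.5-fold, against 7.48% and 4.77% of all genes and 4% and 2.31% of bright genes. The background at 1.5-fold was 807 higher and 515 lower as deposited, and 670 and 663 when centred. The median over the 8 was -0.01, beside -0.02 over all genes, and the median size was 0.13, beside 0.21. With centred arrays Twist1 stood at -0.62, beyond 1.5-fold. These values rest on the brightest probe sets. As deposited, dimmer probe sets that passed the filter stood at 0.57 for Dlk1 and at -0.71, beyond 1.5-fold, for Gata2. All 3 comparisons share the single control array.

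**Figure D1:**
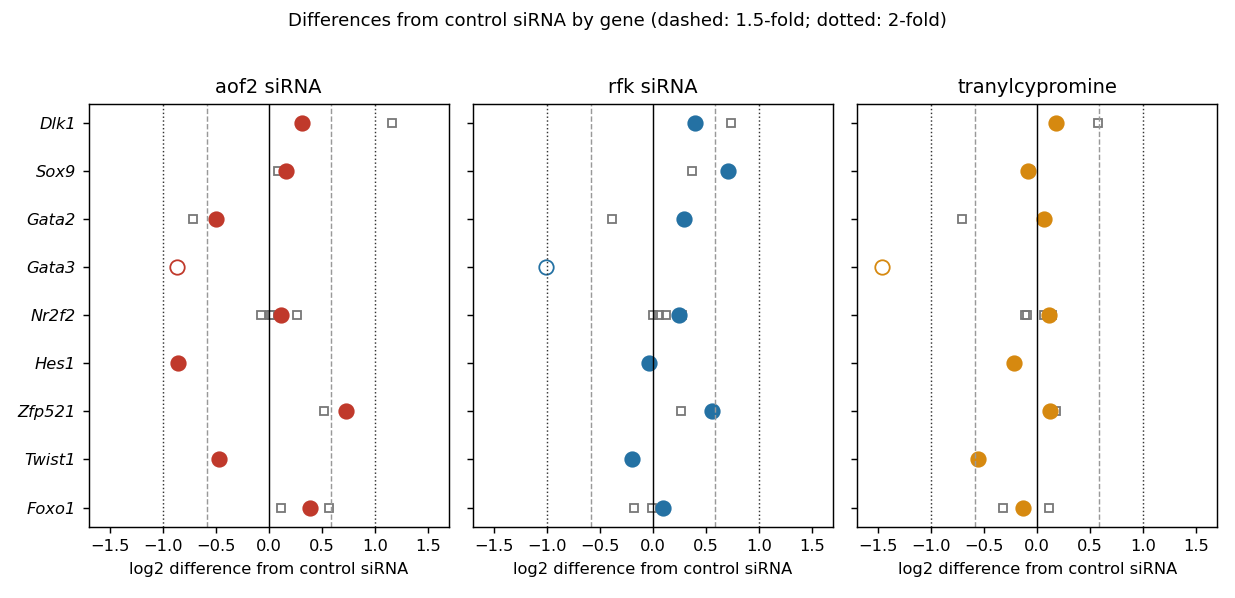
Log2 difference from control siRNA (horizontal axis) of each of the 9 genes (rows) with aof2 siRNA, rfk siRNA and tranylcypromine. Filled circles are the brightest probe set, squares are other probe sets that pass the filter and open circles are Gata3, which does not pass it. The dashed lines mark 1.5-fold. Of the filled circles, Hes1 (-0.85) and Zfp521 (0.73) with aof2 siRNA and Sox9 (0.71) with rfk siRNA lie beyond them. So do squares of Dlk1 with both siRNAs (1.16 and 0.74) and of Gata2 with aof2 siRNA and tranylcypromine (-0.71 in each). The open circles of Gata3 lie beyond them in all 3 comparisons.

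Hes1, the Notch-induced repressor, is measured by 1 probe set. In 3T3-L1 cells both forced expression and loss of HES1 are known to impair differentiation. Its signal was 204 with aof2 siRNA, 358 with rfk siRNA and 317 with tranylcypromine, against 369 with control siRNA. The aof2 siRNA array stood apart from the other 3, at 55.3% of control, whereas rfk siRNA gave 97.2% and tranylcypromine 85.9%. The log2 differences were -0.85, -0.04 and -0.22, and 97 of the 10788 genes (0.899%) were at least as far below control with aof2 siRNA. Hes1 was also higher with rfk siRNA than with aof2 siRNA, by 0.81, and higher with tranylcypromine than with aof2 siRNA, by 0.64. It has no second probe set against which to read this value.

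Zfp521 encodes a zinc finger protein that holds precursor cells back from the adipose fate. Its brighter probe set gave 1801 with aof2 siRNA, 1599 with rfk siRNA and 1181 with tranylcypromine, against 1087 with control siRNA. The other gave 297, 249 and 234, against 207. Both probe sets put the arrays in the same order, with aof2 siRNA highest, rfk siRNA next, then tranylcypromine, and control lowest. The log2 differences of the brighter one were 0.73, 0.56 and 0.12, and those of the other 0.52, 0.26 and 0.17. Tranylcypromine thus differed from control by less than the scatter between probe sets. With tranylcypromine Zfp521 was lower than with aof2 siRNA, by a log2 difference of -0.61 on the brighter probe set and -0.35 on the other, which is short of 1.5-fold.

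Sox9 encodes a high-mobility-group box factor better known from cartilage. Its brightest probe set gave 1023 with aof2 siRNA, 1491 with rfk siRNA and 862 with tranylcypromine, against 915 with control siRNA. The second gave 962, 1174 and 869, against 908. On both the rfk siRNA array was the highest and the other 3 lay within 0.25 of each other on the log2 scale. The rfk siRNA difference was 0.71 on one and 0.37 on the other, so its size depends on the probe set, and 273 genes (2.53%) were at least as far above control. One more Sox9 probe set stayed below the filter, at 30.4, 12.6 and 21.0 in the treated arrays and 4.48 in the control array, and its order of arrays differs. Tranylcypromine against rfk siRNA gave -0.79 on the brightest probe set and -0.43 on the second. The chondrocyte markers Col2a1, Acan, Col9a1 and Matn1 all lay below the filter. The summed signal of 5 such markers was 183, 163 and 148 in the treated arrays and 105 in the control array. Most of each sum came from the markers below the filter, where MAS5 differences scatter widely. Comp, the one that passed, had signals of 64.1, 65.5 and 44.4 in the treated arrays and 38.98 in the control array, or differences of 0.72, 0.75 and 0.19. Its part in the Sox9 values was not tested.

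Dlk1 is the classical preadipocyte mark of this line. Its brighter probe set gave 8616 with aof2 siRNA, 9129 with rfk siRNA and 7817 with tranylcypromine, against 6917 with control siRNA, and the control array was the lowest of the 4. The log2 differences were 0.32, 0.40 and 0.18, which are up to 1.32-fold. A dimmer probe set gave 209, 156 and 139, against 93.2, with the control array again lowest. Its differences of 1.16, 0.74 and 0.57 were larger, and the order of the aof2 siRNA and rfk siRNA arrays was turned round. The brighter probe set carries a suffix for a shared sequence, and without such probe sets Dlk1 rests on the dimmer one and passes 2-fold with aof2 siRNA. Adam17, whose product sheds the outer part of DLK1, was at -0.03, 0.11 and -0.04 on its brightest probe set, with others up to 0.29 and 0.55 with the siRNAs and down to -0.38 with tranylcypromine. Meg3, the non-coding RNA of the same imprinted region, was at 0.44, -0.15 and 0.79 from a control signal of 59.8. Only 1 of its 11 probe sets passed the filter. Dlk2, a relative of Dlk1, gave -0.53, -0.27 and -0.03 on one probe set and 0.24, 0.42 and 0.94 on the other, so it has no direction here.

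Gata2 encodes a zinc finger factor of white preadipocytes, and its 2 probe sets disagreed. The brighter gave 226 with aof2 siRNA, 389 with rfk siRNA and 332 with tranylcypromine, against 318 with control siRNA. The other gave 131, 164 and 131, against 214. Only the aof2 siRNA array was below control on both, by -0.49 and -0.71. With rfk siRNA they gave 0.29 and -0.38, and with tranylcypromine 0.06 and -0.71, so no direction can be read there, and with centred arrays the 0.06 became -0.0002. Which of the 2 annotated starts shown above each probe set reads is not known here. Rfk siRNA against aof2 siRNA gave 0.79 and 0.33. The signals of Gata3 were 15.99, 14.5 and 10.6 with the treatments and 29.2 with control, all under the filter, where MAS5 differences scatter widely.

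**Figure D2:**
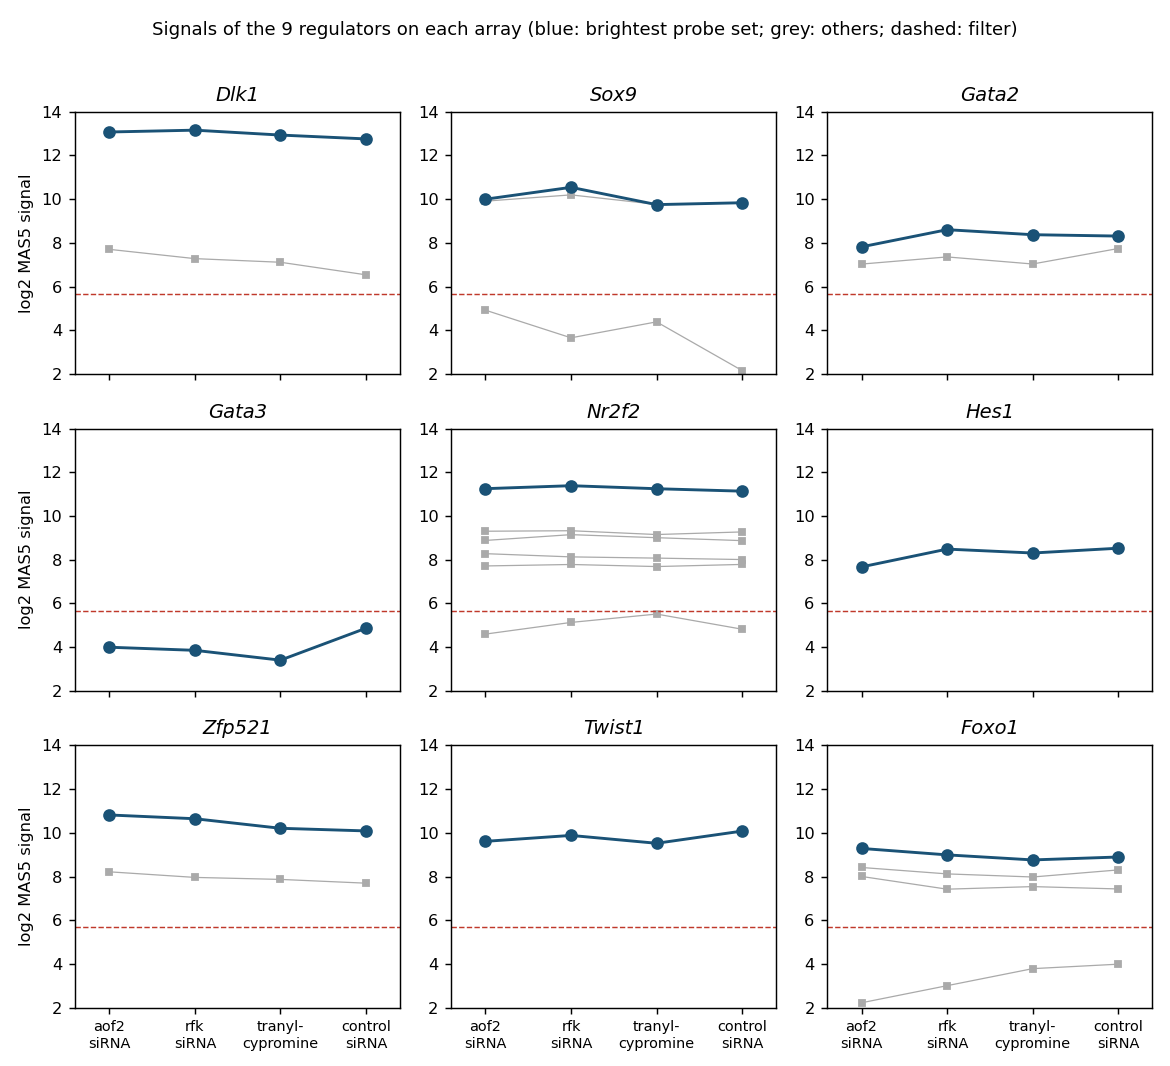
Log2 MAS5 signal (vertical axis) of every probe set of the 9 genes on the 4 arrays (horizontal axis). Lines join the values of a probe set, blue for the brightest and grey for the others, and the dashed line is the filter at a signal of 50.9. The Gata2 and Sox9 panels show where probe sets of a gene differ, and the Gata3 line lies wholly under the filter.

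Twist1, a basic helix-loop-helix factor, gave 781 with aof2 siRNA, 942 with rfk siRNA and 734 with tranylcypromine, against 1081 with control siRNA. The control array was the highest of the 4. The log2 differences were -0.47, -0.20 and -0.56, with 5.14%, 21.9% and 5.31% of genes at least as far below control. It rests on 1 probe set, and its 4 arrays spanned 0.56, a span that 28.8% of genes reached.

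Foxo1, a forkhead factor that insulin signalling holds out of the nucleus, gave 623 with aof2 siRNA, 508 with rfk siRNA and 433 with tranylcypromine on its brightest probe set, against 475 with control siRNA. The aof2 siRNA array was the highest of the 4 on each of the 3 probe sets that passed the filter. Their differences from control ran between 0.11 and 0.57 with aof2 siRNA, between -0.18 and 0.10 with rfk siRNA, and between -0.32 and 0.11 with tranylcypromine. Tranylcypromine against aof2 siRNA gave values between -0.53 and -0.43 on the 3 probe sets.

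Nr2f2, the orphan nuclear receptor COUP-TFII, had 6 probe sets, of which 5 passed the filter. The brightest gave 2434, 2674 and 2430 with aof2 siRNA, rfk siRNA and tranylcypromine, against 2249 with control siRNA. The 5 probe sets gave differences between -0.07 and 0.27, between -0.003 and 0.27, and between -0.12 and 0.13, all within the scatter between probe sets of a gene. The 4 arrays spanned 0.25, and 74.7% of genes spanned at least as much.

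**Figure D3:**
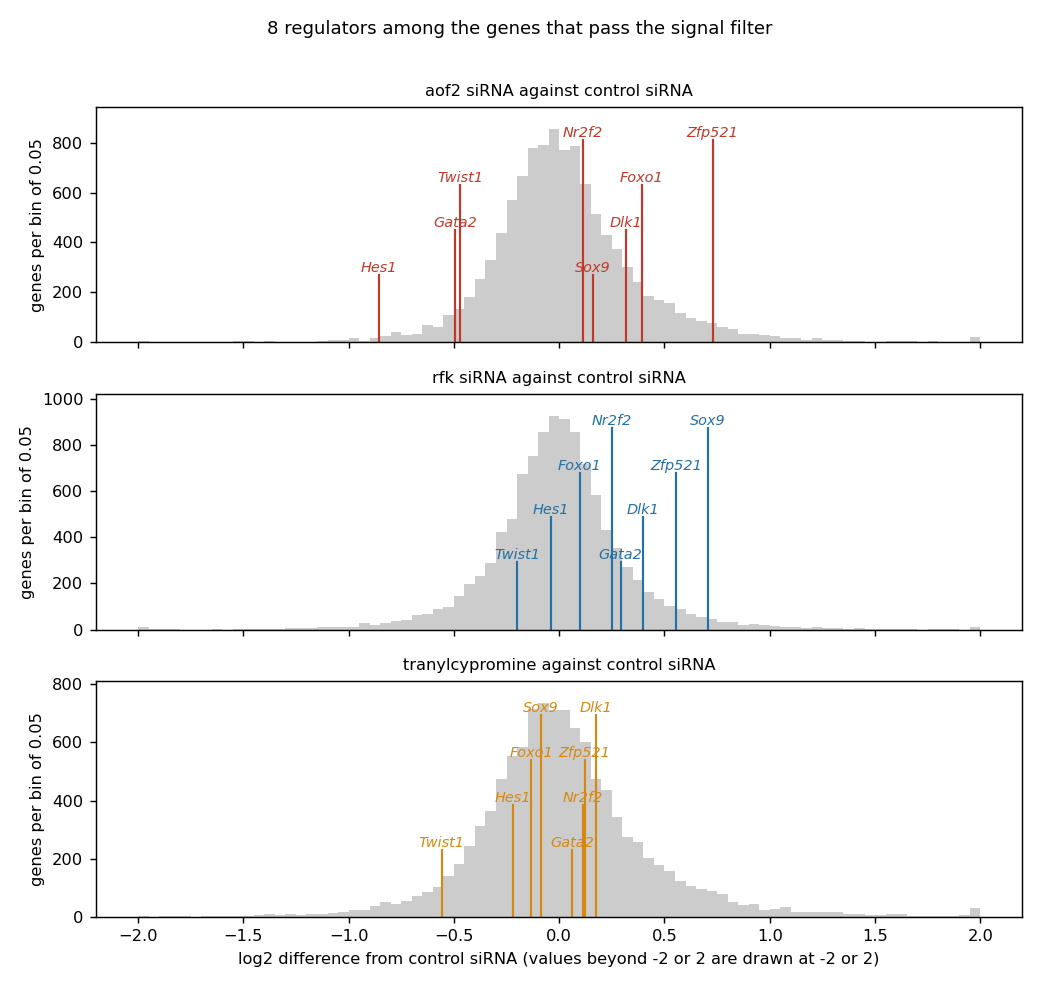
Number of genes (vertical axis, bins of 0.05) by log2 difference from control siRNA (horizontal axis) for the 10788 genes that pass the filter, with a line at each of the 8 regulators that pass it. The lines spread to both sides with aof2 siRNA, lie mostly to the right with rfk siRNA and, apart from Twist1 at -0.56, near the centre with tranylcypromine.

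Between treated arrays, which leave out the control, all 8 genes were lower with tranylcypromine than with rfk siRNA on their brightest probe sets, by -0.14 (Nr2f2) to -0.79 (Sox9), against 49.3% of all genes. At 1.5-fold 1 of the 8 was lower (Sox9) and 0 higher, against 5.55% and 7.87% of all genes. All 8 were also lower with centred and with quantile-normalized arrays, but another Foxo1 probe set that passed the filter was higher with tranylcypromine by 0.12, and Sox9 was at -0.43 on its second probe set. With tranylcypromine against aof2 siRNA 2 of the 8 were higher and 6 lower (3 and 5 with centred arrays). At 1.5-fold Hes1 was higher and Zfp521 lower (on 1 of its 2 probe sets), against 3.54% and 4.23% of all genes. With rfk siRNA against aof2 siRNA 6 were higher and 2 lower, against 48.5% of all genes higher. At 1.5-fold Hes1 and Gata2 were higher and 0 lower, against 3.22% and 6.28% of all genes. With centred arrays a further gene passed, for 3 higher.

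The genes around these regulators were taken from lists of relatives, partners and targets. In the Notch pathway 13 of 20 genes passed the filter. At 1.5-fold 2 were higher and 0 lower with aof2 siRNA, 2 higher and 1 lower with rfk siRNA, and 1 higher and 1 lower with tranylcypromine. The shares over all genes were 6.26% higher and 2.88% lower, 3.92% and 3.8%, and 7.48% and 4.77%, and with centred arrays the count of 2 with aof2 siRNA was 1. Tle1, a corepressor that works with HES1, was the highest in each, at 0.93, 0.88 and 0.91, although a second probe set gave 0.30, 0.02 and 0.38. The receptor gene Notch2 was at 0.28 (-0.07 on a second probe set), 0.32 and 0.56, and Notch1 at 0.33, 0.42 and 0.57. Jag1, which encodes a Notch ligand, had signals of 1835, 1554 and 1458 in the treated arrays and 1161 in the control array, although with rfk siRNA another of its 3 probe sets gave -0.17. Rbpj, the DNA-binding partner of Notch, was the lowest with aof2 siRNA at -0.32, where its 3 probe sets reached up to 0.43. With aof2 siRNA 7 of the 13 genes were above control and 6 below (6 and 7 with centred arrays), against 49.3% of all genes above. Hes1 was below, as were the receptor gene Notch3 at -0.19 and the ligand gene Jag2 at -0.04. Notch3 was the lowest with rfk siRNA, at -1.25, and Hey1, another Notch target, stood at 0.01, 0.72 and -1.04 with signals of 65.5, 107 and 31.4 in the treated arrays and 64.8 in the control array. The Hey1 value of 0.01 became -0.06 with centred arrays.

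Relatives of Twist1 and its E protein partners stood above control with aof2 siRNA in 10 of 10 genes (7 of 10 with centred arrays). With rfk siRNA 6 of 10 were above and with tranylcypromine 8 of 10. The shares of all genes above control were 49.3%, 48.5% and 48.0%. At 1.5-fold the counts were 1 higher with aof2 siRNA, 0 with rfk siRNA and 1 with tranylcypromine, and 0 were lower in each, against 6.26%, 3.92% and 7.48% of all genes higher, so 1 of 10 is near the background. Twist2, the closest relative, had signals of 3866, 2918 and 4625 in the treated arrays and 3335 in the control array. With aof2 siRNA and tranylcypromine it was thus above control where Twist1 was below. Snai2, a zinc finger factor of the same mesenchymal programme, was highest with aof2 siRNA at 0.94 and with tranylcypromine at 1.24, but a second probe set gave -0.53 for tranylcypromine. The list's lowest values were 0.01 for Prrx1 with aof2 siRNA (-0.06 with centred arrays), -0.25 for Snai1 with rfk siRNA and -0.25 for Zeb2 with tranylcypromine, and Tcf3 was highest with rfk siRNA at 0.33. The probe sets of Prrx1 ran between -0.52 and 0.23 with aof2 siRNA.

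Nr2f1, the closest relative of Nr2f2, had signals of 946, 1060 and 843 in the treated arrays and 1482 in the control array. Its differences of -0.65, -0.48 and -0.81 made it the lowest of the 6 orphan receptors that passed the filter, and the control array was the highest. Nr4a1, an early response receptor, was the highest of them at 0.47, 0.56 and 0.43. Of the relatives of ZFP521 and the EBF factors 4 of 5 passed. Zfp423, which promotes the preadipocyte fate and Pparg, was at 0.34, 0.11 and -0.48 from a control signal of 93.5, and Ebf1 at -0.09, 0.03 and -0.60. Ebf1 was the lowest of the 4 with tranylcypromine, and its 4 probe sets there ran between -0.60 and -0.23. Ebf2 was highest with tranylcypromine at 0.19 and lowest with rfk siRNA at 0.002, a value that turned negative with centred arrays or quantiles, and Ebf3 was highest with rfk siRNA at 0.12.

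**Figure D4:**
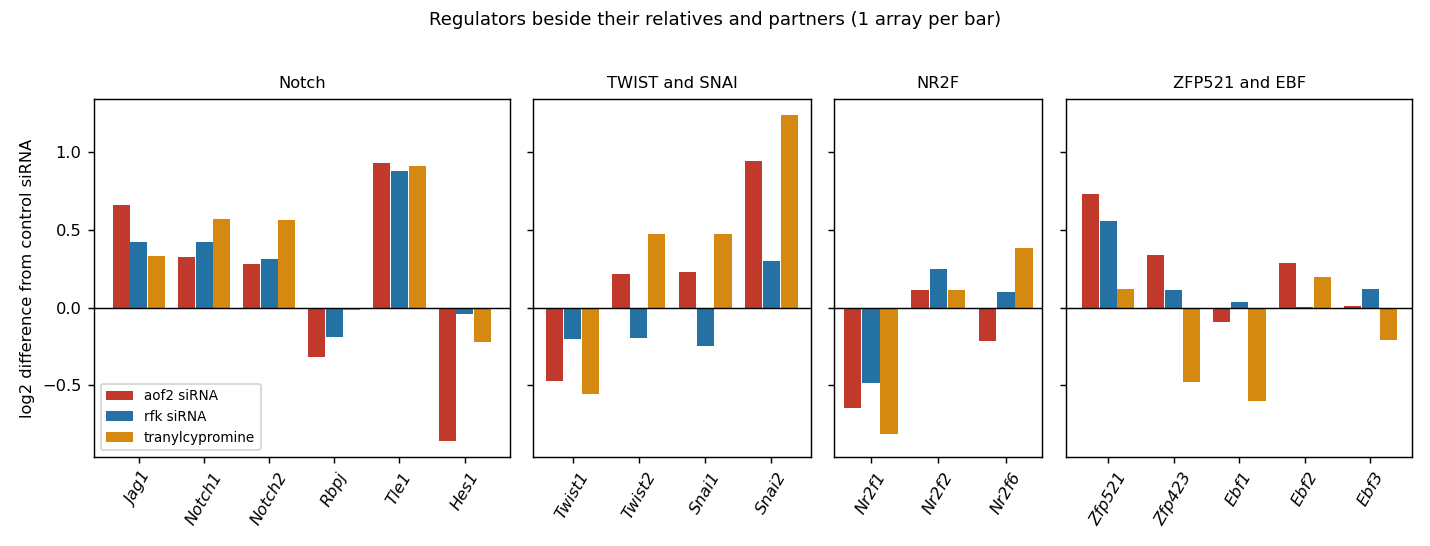
Log2 difference from control siRNA (vertical axis) of Hes1, Twist1, Nr2f2 and Zfp521 beside relatives and partners, with 1 bar per array against the control array. Hes1, Rbpj, Twist1 and Nr2f1 reach below zero in all 3 comparisons. In the Notch panel Jag1, Notch1, Notch2 and Tle1 lie above it. Notch3, which is not drawn, was below zero in all 3. Each bar is the brightest probe set, and other probe sets of Rbpj, Notch2 and Jag1 cross zero.

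In the GATA family and its cofactors 5 of 9 genes passed, and on their brightest probe sets 0 reached 1.5-fold in any comparison. Of all genes 6.26% were higher and 2.88% lower with aof2 siRNA, 3.92% and 3.8% with rfk siRNA, and 7.48% and 4.77% with tranylcypromine. At such shares 0 of 5 is near the background. Zfpm2, a cofactor that binds GATA proteins, was at -0.08, 0.05 and -0.26, and its second probe set gave 0.60 with aof2 siRNA. Zfpm1 was highest with aof2 siRNA and tranylcypromine, at 0.37 and 0.57, and Gata6 with rfk siRNA at 0.22. Ldb1, a bridging cofactor, was lowest in all 3 at -0.37, -0.12 and -0.41. Of 6 SOX genes of mesenchyme 4 passed and 0 reached 1.5-fold on their brightest probe sets, which is also near these shares. Sox4 was highest at 0.35, 0.37 and 0.07 and Sox12 lowest at -0.30, -0.01 and -0.35, although a second Sox12 probe set gave 1.047 with tranylcypromine. Other probe sets went beyond 1.5-fold. With aof2 siRNA those of Sox4 ran between 0.12 and 0.81, of Sox11 between -0.54 and 0.95, and of Sox5 between -0.90 and -0.19. With rfk siRNA Sox11 ran between 0.06 and 0.96 and Sox5 between -1.59 and 0.36.

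FOXO relatives and known FOXO targets had 13 members above the filter. With aof2 siRNA 0 reached 1.5-fold, with rfk siRNA 1 was higher, and with tranylcypromine 2 were lower, against 3.92% of all genes higher with rfk siRNA and 4.77% lower with tranylcypromine. Irs2, an insulin receptor substrate that FOXO1 can induce, was at 0.64 with rfk siRNA. Gadd45a, a growth arrest gene, was at -0.82 and Cdkn1b, which encodes the cell cycle inhibitor p27, at -0.69 with tranylcypromine. Sesn1 was the highest with aof2 siRNA, at 0.52, and with tranylcypromine, at 0.18. Gadd45a was the lowest with aof2 siRNA, at -0.38, and Ccng2 with rfk siRNA, at -0.48.

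Other known inhibitors of adipogenesis showed no common direction. Of 15 that passed, 8, 6 and 7 were above control with aof2 siRNA, rfk siRNA and tranylcypromine, and 7, 9 and 8 below. Of all genes 49.3%, 48.5% and 48.0% were above. Their medians were 0.04, -0.06 and -0.04. Tgfb1 was highest with aof2 siRNA and tranylcypromine, at 0.78 and 0.82 from a dim control signal of 43.7, and Tcf7l2 with rfk siRNA at 0.35. Ddit3, which encodes CHOP, an inhibitor of C/EBP factors, was lowest with aof2 siRNA at -0.49 and with tranylcypromine at -0.48, and Ets1 with rfk siRNA at -0.68, where its 4 probe sets ran between -0.82 and 0.16.

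Surface markers of preadipocytes numbered 9 above the filter. Pi16, a marker of adipose progenitors, was highest with both siRNAs, with signals of 590, 280 and 342 in the treated arrays and 152 in the control array, or differences of 1.96, 0.88 and 1.17. Cd24a was highest with tranylcypromine at 1.30, with probe sets between 0.89 and 1.44. The lowest were F3 at -0.31 with aof2 siRNA and -0.37 with tranylcypromine, and Pdgfrb at -0.37 with rfk siRNA. The medians of the 9 were 0.21, -0.02 and 0.10.

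The genes that these regulators are known to restrain were read from the same arrays. Of 14 genes of the adipocyte cascade 8 passed the filter, and at 1.5-fold 2, 3 and 3 were lower with aof2 siRNA, rfk siRNA and tranylcypromine, and 0 higher in each, against 2.88%, 3.8% and 4.77% lower among all genes. Fabp4 was the lowest in each, at -0.92, -1.64 and -1.17. Pparg was at -0.12, -0.77 and -0.44. Cebpb, at 0.08, 0.03 and -0.01, stayed close to control, with the rfk siRNA value at -0.04 after quantile normalization, and Cebpd was at 0.33, 0.27 and -0.31. Cebpa was highest with aof2 siRNA and tranylcypromine, at 0.56 and 0.28 from a control signal of 91.7. Adipoq lay below the filter with signals of 7.47, 9.002 and 22.0 in the treated arrays and 4.32 in the control array. The part of the adipocyte genes in the regulators' values was not tested.

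The genes most like the 3 regulators beyond 1.5-fold were sought among the bright genes, by Euclidean distance over the 3 log2 differences from control. For Sox9 these were Mex3d and Il18, at distances of 0.07 and 0.09. For Zfp521 they were C1ra and Tmem14a, at 0.07 and 0.13. For Hes1 they were Pank1 and Tmem11, at 0.12 and 0.19. The likeness rests on 4 arrays and a shared control. With 6873 bright genes searched, a near neighbour is likely for any gene, and the distances usual for other genes were not computed.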

How the data were processed

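The authors deposited 1 MAS5 signal per probe set and array, a linear intensity. The submitters' processing notes name MAS5 without a version. With 2% of the probe sets trimmed at each end the arrays shared a mean of 500.003, so the deposited intensities were scaled array by array, and a difference in total RNA per cell is not visible. Precision is limited by the number of arrays, 1 per group.

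No offset was added before log2. The platform annotation gave 34958 probe sets 1 symbol and 932 several, and 9211 stayed unnamed. Gene identifiers of 34754 matched the RefSeq table of GRCm38.p6, which changed 0 symbols. The brightest probe set on average stood for a gene. A gene passed the filter at the median of all probe sets. Calls were made at 2-fold, and at 1.5-fold, a log2 difference of 0.58. No test was made. The members and lists were chosen with earlier results of these data known. The text names the 9 regulators, the targeted genes, the highest and lowest member of each list, a fixed set of relatives, partners and adipocyte genes, and the 2 nearest genes of each regulator beyond 1.5-fold; Notch1, Jag1, Jag2, Comp, Cdkn1b and the relatives shown only in a figure were added after their values were seen. Promoter motifs were matched exactly on both strands. The choice of probe sets, the filter and the fold counting were run on simulated arrays with known fold changes. The simulated scatter was smaller than that between probe sets of a gene. The checks of fold changes covered only changes larger than 2-fold. The motif search, the lists and the nearest genes were not tested in this way. Work was done in Python 3.11.15 with pandas 2.3.3, NumPy 2.4.6, matplotlib 3.10.9 and SciPy 1.17.1.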

Additional observations from a re-analysis of the deposited data

How the results depend on the processing

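Other scalings (centred medians, quantiles), an offset of 16, other filters (none, or the 75th percentile), other ways to stand a probe set for a gene, the 3 other arrays averaged in place of the control, and a 1.5-fold limit were tried. With aof2 siRNA the count of regulators at 2-fold, 0 as reported, was 1 with the mean of all probe sets (Sox9 at 1.002, through a probe set below the filter), 1 once probe sets shared between transcripts were dropped (Dlk1 at 1.16), and 2 at 1.5-fold. With rfk siRNA it was 1 without the filter (Gata3) and 1 at 1.5-fold, and with tranylcypromine 1 without the filter (Gata3). The median over the regulators ran between -0.08 and 0.24 with aof2 siRNA, between 0.06 and 0.32 with rfk siRNA, and between -0.18 and 0.02 with tranylcypromine. Of 183 values of single regulators under these settings, 168 kept their sign and 15 did not. By more than the SD between probe sets of a gene 13 moved, and 0 of the values beyond 1.5-fold changed sign. Many of these values could not move. A change of filter leaves the value of a gene as it was. The probe set settings cannot change Hes1 and Twist1, with 1 probe set each. Dropping shared probe sets also left Sox9, Nr2f2 and Zfp521 as they were. The 168 thus overstate how stable the values are. Across settings Hes1 with aof2 siRNA ran between -0.93 and -0.77, Zfp521 between 0.50 and 0.76, and Sox9 with rfk siRNA between 0.68 and 0.86. Foxo1 with aof2 siRNA stood at -0.17 with the mean of all probe sets, which takes in a probe set below the filter. Against the average of the 3 other arrays, Hes1 and Twist1 with rfk siRNA stood at 0.32 and 0.14 and Zfp521 with tranylcypromine at -0.31. That average takes in the other treated arrays. Hes1 had a signal of 204 with aof2 siRNA, and Twist1 had 781 with aof2 siRNA and 734 with tranylcypromine. Zfp521 had 1801 with aof2 siRNA and 1599 with rfk siRNA. No paired analysis was possible because each group has 1 array. The low signals of Gata3, Adipoq, Tgfb1, Comp and Meg3 limit what can be read from them.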
